A study of Mus musculus with 12 samples.

Results

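The genes described here are 129 of 5856 genes measured in mouse liver, 2.2% of them, whose mRNA stood at successively lower levels in 4 genotypes with increasing activity of the transcription factor Nrf2. They were chosen by their measured values on 12 arrays. For each gene the probe set (a group of probes that reads the same transcript) with the highest 12-array mean was taken. Group means had to be strictly ordered, with Nrf2-null above wild-type, wild-type above Keap1-KD and Keap1-KD above Keap1-HKO mice. The Nrf2-null mean had to exceed the Keap1-HKO mean by at least 0.8 on the log2 scale, with each of the 3 Nrf2-null arrays above each of the 3 Keap1-HKO arrays. Means were strictly ordered for 591 genes, the difference was also large enough for 163, and arrays were also separate for 132. Of these 132, Cyp17a1, Cyp2u1 and Cyp4v3 were left out by symbol, as were all symbols that start with Cyp, Slc10 or Keap. The mirror rule, with every inequality turned round, found 163 genes. Without Nrf2-null replicate 1 the rule found 323 genes, 102 of the 129 among them, so that the list depends on that array. Fewer arrays have to be separate in that case, as is also so without Nrf2-null replicate 2 or 3, where the rule found 133 and 152 genes. With no separation of arrays required it found 160. What in the values of replicate 1 changed the count was not tested.

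Keap1 holds Nrf2 in the cytosol and directs its degradation. Without Keap1, Nrf2 reaches the nucleus and, with small Maf proteins, binds the antioxidant response element upstream of genes of glutathione synthesis, NADPH supply and conjugation. Nrf2 is known mainly as an activator in liver, and the genes described here lie on the opposite slope.

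All mice were untreated males of 8 weeks on a C57BL/6 background, and liver RNA of 3 mice per genotype was hybridised, each to an array of its own. Nrf2-null mice lack Nrf2 in all tissues, and wild-type mice carry both genes intact. Keap1-KD mice have less Keap1 in the whole body. In Keap1-HKO mice the Keap1-KD state is combined with AlbCre, a recombinase active in hepatocytes, so that other liver cells of these mice keep the knockdown state. Values are log2 intensities, background-corrected and quantile-normalized by gcRMA before deposit. In bulk liver, fewer cells of a type and less RNA per cell cannot be told apart.

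The targeted genes followed the labels. Nfe2l2, which encodes Nrf2, was at 2.29 to 2.46 on the Nrf2-null arrays, against 8.81 to 8.94 on the wild-type arrays. Keap1 was at 5.59 to 5.92 on the Keap1-KD arrays and at 3.34 to 3.39 on the Keap1-HKO arrays, against 7.80 to 7.97 on the wild-type arrays. Of 32 measured canonical Nrf2 targets 0 had a higher mean in Nrf2-null than in Keap1-HKO mice, with a median Nrf2-null minus Keap1-HKO difference of −2.93. Hepatocyte markers were high on all arrays. Of 10 such markers 8 were measured, Alb and Ttr among them, with a summed un-logged intensity of 509881 to 522059 in Nrf2-null, 483197 to 505068 in wild-type, 485573 to 500052 in Keap1-KD and 416615 to 465810 in Keap1-HKO mice. The Keap1-HKO sums lay under all others, and the part of this in the levels below was not tested. Of 20 pancreas acinar markers 13 were measured, with sums of up to 212111 on the Keap1-HKO arrays, 508 on Keap1-HKO replicate 1 and at most 1354 in other genotypes. Of 16 skeletal muscle markers 11 were measured, with sums of up to 35163 in Keap1-HKO and 25544 in wild-type mice. None of the marker genes was among the 129, and the part of pancreas and muscle transcripts in the members' levels was not tested. The array of Nrf2-null replicate 1 differed from the other arrays of its genotype by a mean absolute 0.580 and that of Keap1-HKO replicate 1 by 0.901, against 0.147 to 0.561 for the remaining 10 arrays.

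Relative to each gene's mean over the genotypes, the median of the 129 genes was 0.66, 0.52 and 0.48 on the Nrf2-null arrays and 0.24, 0.23 and 0.18 on the wild-type arrays. It was 0.03, −0.07 and −0.11 on the Keap1-KD arrays and −0.77, −0.65 and −0.64 on the Keap1-HKO arrays. The 12 arrays fell into 4 ranges that did not overlap, which the choice of genes fixes in large part. The median of all 5856 genes stayed between −0.05 and 0.12 on every array. The lowest median of the 129 genes was that of Keap1-HKO replicate 1.

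**Figure D1:**
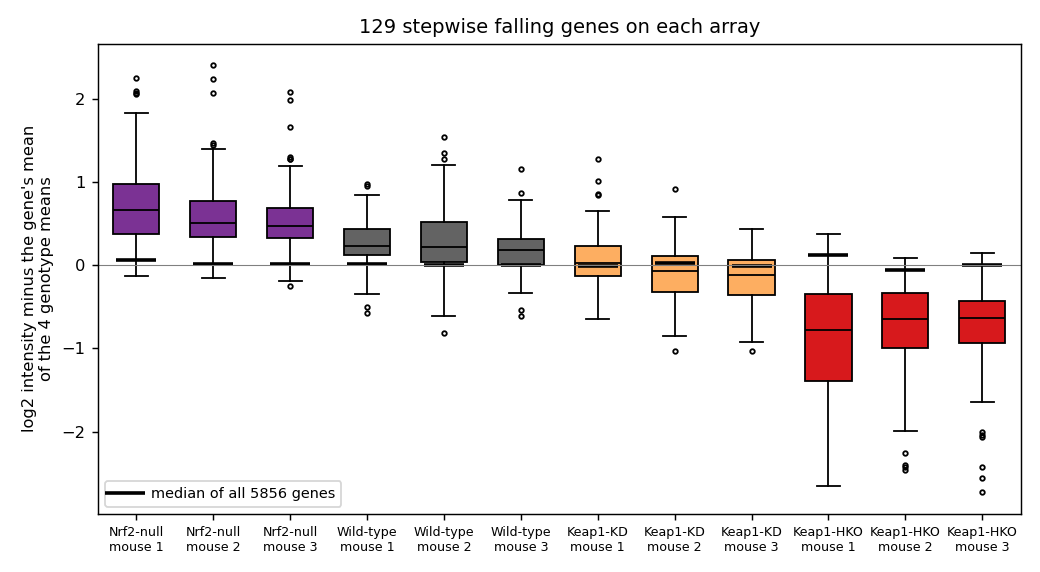
Log2 intensity of the 129 genes on each of the 12 arrays, as the difference from each gene's mean of the 4 genotype means (boxes show the median and quartiles, whiskers the range without the far values drawn as circles). Thick black lines mark the median of all 5856 genes, which stays near 0 while the boxes step down through the genotypes.

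The Nrf2-null minus Keap1-HKO difference of the 129 genes ran from 0.81 to 4.25 with a median of 1.26, and it was at least 1 for 92 genes, at least 2 for 18 and at least 3 for 6. Over all 5856 genes its median was 0.05. These are the values that chose the genes, and they are given as a description. Against wild-type mice the median difference was 0.31 for Nrf2-null, −0.25 for Keap1-KD and −0.92 for Keap1-HKO, and Keap1-HKO stood below Keap1-KD mice by a median of −0.63. The spread within genotypes, pooled over the 4 groups, had a median SD of 0.34 among the 129 and 0.29 among all genes. At the median, the steps between wild-type mice and either neighbouring genotype were no larger than this spread.

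Each difference was split into its 3 steps. The step between Nrf2-null and wild-type mice held a median of 25.3% of the whole, that between wild-type and Keap1-KD mice 18.1%, and that between Keap1-KD and Keap1-HKO mice 51.8%. The last step was the largest for 86 genes, the first for 26 and the middle for 17. In 43 genes the last step alone held at least 60% of the difference, in 7 the first and in 3 the middle, while in 76 no step reached that share. Only 20 of the 129 had at least 20% of the difference in every step.

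**Figure D2:**
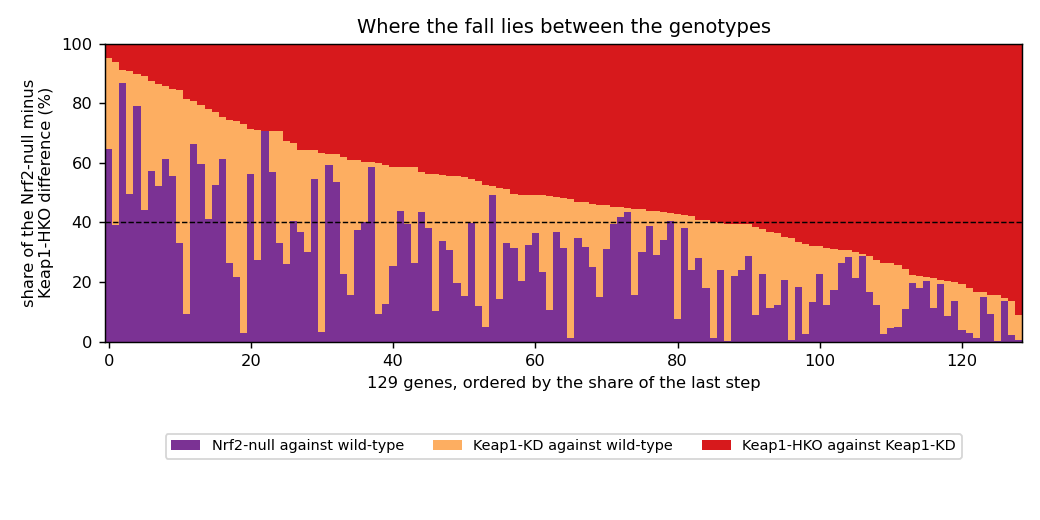
Share (%) of the Nrf2-null minus Keap1-HKO difference that lies in each step, 1 column per gene, ordered by the last step. Columns whose red part reaches below the dashed line have at least 60% of the difference between Keap1-HKO and Keap1-KD mice, as 43 of 129 genes do.

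Steps were compared with the spread by asking whether whole groups of arrays were separate. Every Nrf2-null array lay above every wild-type array for 40 members (12.1% of all genes), and every Keap1-KD array lay below every wild-type array for 40 (8.21% of all genes). Every Keap1-HKO array lay below every wild-type array for 103 (14.9% of all genes) and below every Keap1-KD array for 72 (9.48% of all genes). Slc3a1, Spsb4, Cbs, Bace1 and Ceacam1 had all 4 genotypes separate in order, 5 of the 8 genes (0.137% of all genes) that did. By limma (1 fit of all 4 genotypes, adjusted p under 0.05 over all genes) 99 members were called lower in Keap1-HKO than in Nrf2-null mice (4.63% of all genes) and 41 lower in Keap1-HKO than in wild-type mice (1.84% of all genes). Called higher in Nrf2-null than in wild-type mice were 0 members (0.0512% of all genes), and called lower in Keap1-KD than in wild-type mice were 0 (0.0171% of all genes). With array quality weights these counts were 54 and 27 members, while the genes called in either direction in the whole table numbered 1379 and 323, against 24 and 4 without weights. The rule ordered all of these means, so nothing is read from the shares.

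The largest log2 difference was that of Mmd2, a membrane protein of the progestin and adipoQ receptor family. Mmd2 was at 7.53, 7.77 and 7.68 in Nrf2-null mice, 5.41, 5.69 and 6.85 in wild-type mice, 6.71, 5.82 and 4.66 in Keap1-KD mice and 3.99, 3.27 and 2.96 in Keap1-HKO mice. Wild-type and Keap1-KD arrays overlapped, with 6.0% of the difference between them, whereas the Nrf2-null arrays lay above and the Keap1-HKO arrays below all others. All Keap1-HKO arrays of Mmd2 and most of its wild-type and Keap1-KD arrays read under an intensity of 100, the authors' filter level. The size of the difference and of its steps is therefore imprecise. With 100 as a floor, Mmd2 was at least 2.03-fold lower in Keap1-HKO than in Nrf2-null mice. A second Mmd2 probe set differed by 2.35 in place of 4.25 between Nrf2-null and Keap1-HKO mice, with means that were not in falling order (5.36 in Keap1-KD mice, against 5.31 in wild-type mice). The probe set used carries a suffix (x_at) that marks probes which may bind other transcripts, as do those of 8 members in all.

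Slc3a1, the heavy subunit of a transporter for cystine and dibasic amino acids, descended through all 4 genotypes. It was at 9.28, 9.74 and 9.59 in Nrf2-null mice, 7.74, 8.16 and 8.08 in wild-type mice, 7.43, 6.97 and 6.71 in Keap1-KD mice and 6.18, 5.04 and 5.07 in Keap1-HKO mice. No genotype overlapped with the next, and the steps held 37.6%, 23.3% and 39.1% of a difference of 4.10 (standard error 0.31). All Keap1-HKO arrays read under an intensity of 100 (the dotted line in the plot of 12 genes), the level that probe sets had to exceed in at least 1 genotype to be kept by the authors. With 100 as a floor, Slc3a1 was at least 7.49-fold lower in Keap1-HKO than in Nrf2-null mice. Such a bound sets the mean un-logged intensity of the Nrf2-null arrays against 100. It applies to 29 members, those with every Keap1-HKO array under 100.

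Spsb4, a substrate receptor of a ubiquitin ligase, had the same ordered form. Its values were 7.92, 7.61 and 7.40 in Nrf2-null mice, 7.25, 6.74 and 7.06 in wild-type mice, 6.13, 6.20 and 6.37 in Keap1-KD mice and 4.56, 4.28 and 3.71 in Keap1-HKO mice, with a difference of 3.46 (standard error 0.23) and a bound of at least 2.02-fold lower in Keap1-HKO mice. Here too no genotypes overlapped, and the last step held 59.2% of the difference.

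Hormone and growth factor signalling genes made up a group of 14 members with a median difference of 1.58 (0.98 to 3.22). Avpr1a, the V1a vasopressin receptor, which couples to calcium release in hepatocytes, was at 9.21, 8.67 and 8.89 in Nrf2-null mice, 7.83, 8.51 and 8.10 in wild-type mice, 7.89, 7.81 and 7.23 in Keap1-KD mice and 5.73, 5.85 and 5.53 in Keap1-HKO mice. Keap1-HKO arrays were far below the rest while wild-type and Keap1-KD arrays overlapped in part, and Avpr1a was at least 4.91-fold lower in Keap1-HKO than in Nrf2-null mice. Of all members its profile lay closest to the members' median profile (r = 0.98 over the 12 arrays, a description, since the rule fixes the shape). Enho, which encodes the secreted peptide adropin, was at 9.52, 8.73 and 8.91 in Nrf2-null mice, 7.70, 8.61 and 8.64 in wild-type mice, 7.54, 8.69 and 7.01 in Keap1-KD mice and 6.23, 5.94 and 5.72 in Keap1-HKO mice. The Keap1-HKO arrays of Enho were clear of the rest by a wide margin, and the gene was at least 5.46-fold lower in Keap1-HKO than in Nrf2-null mice.

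Igfbp2, a binding protein of insulin-like growth factors, was at 13.32, 12.43 and 12.53 in Nrf2-null mice, 11.71, 12.13 and 11.85 in wild-type mice, 12.17, 11.49 and 11.83 in Keap1-KD mice and 9.78, 9.29 and 10.09 in Keap1-HKO mice. The middle genotypes were interleaved, with 2.2% of the difference between them, and 69.4% of it lay in the last step. Grk5, a kinase that desensitises G protein-coupled receptors, was at 9.40, 8.54 and 7.62 in Nrf2-null mice, 7.60, 7.91 and 7.78 in wild-type mice, 7.28, 6.79 and 6.22 in Keap1-KD mice and 6.10, 5.35 and 5.14 in Keap1-HKO mice. Nrf2-null arrays of Grk5 spread over a wide range that reached into the wild-type values, and below these the Keap1-KD and Keap1-HKO arrays formed separate groups, with a bound of at least 4.15-fold lower in Keap1-HKO than in Nrf2-null mice. Gprin3, a protein that binds activated G proteins, differed by 2.19 (standard error 0.54) and had its lowest value, 4.48, on Keap1-HKO replicate 1, against 6.93 and 6.25 on the other Keap1-HKO arrays.

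Ppp1r3b, which brings protein phosphatase to glycogen, was at 10.95, 10.48 and 11.39 in Nrf2-null mice, 10.97, 10.52 and 10.36 in wild-type mice, 10.45, 10.45 and 10.16 in Keap1-KD mice and 8.98, 9.32 and 9.25 in Keap1-HKO mice. Nrf2-null and wild-type arrays overlapped and the Keap1-HKO arrays stood apart. G6pc, the catalytic subunit of glucose-6-phosphatase, was at 13.26, 11.57 and 11.57 in Nrf2-null mice, 11.43, 10.35 and 10.99 in wild-type mice, 11.18, 10.31 and 11.10 in Keap1-KD mice and 11.54, 10.14 and 10.54 in Keap1-HKO mice. It was the member least like the median profile (r = 0.56), with 86.8% of the difference in the first step, 1 Nrf2-null array far above the rest, and the other 3 genotypes overlapping. Irs1, an adaptor of the insulin receptor, differed by 0.98 (standard error 0.29), with 48.2% of it between wild-type and Keap1-KD mice. Lifr, the leukaemia inhibitory factor receptor and named after its values were seen, was at 12.64, 12.82 and 12.81 in Nrf2-null mice and at 11.14, 11.31 and 10.62 in Keap1-HKO mice. A second Lifr probe set differed by 0.96, with means that were not in falling order. Of 26 measured genes of glucose, glycogen and insulin response, 3 were members (Ppp1r3b, G6pc and Irs1), 11.5% against 2.2% of all genes. The list's median Nrf2-null minus Keap1-HKO difference was 0.08.

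**Figure D3:**
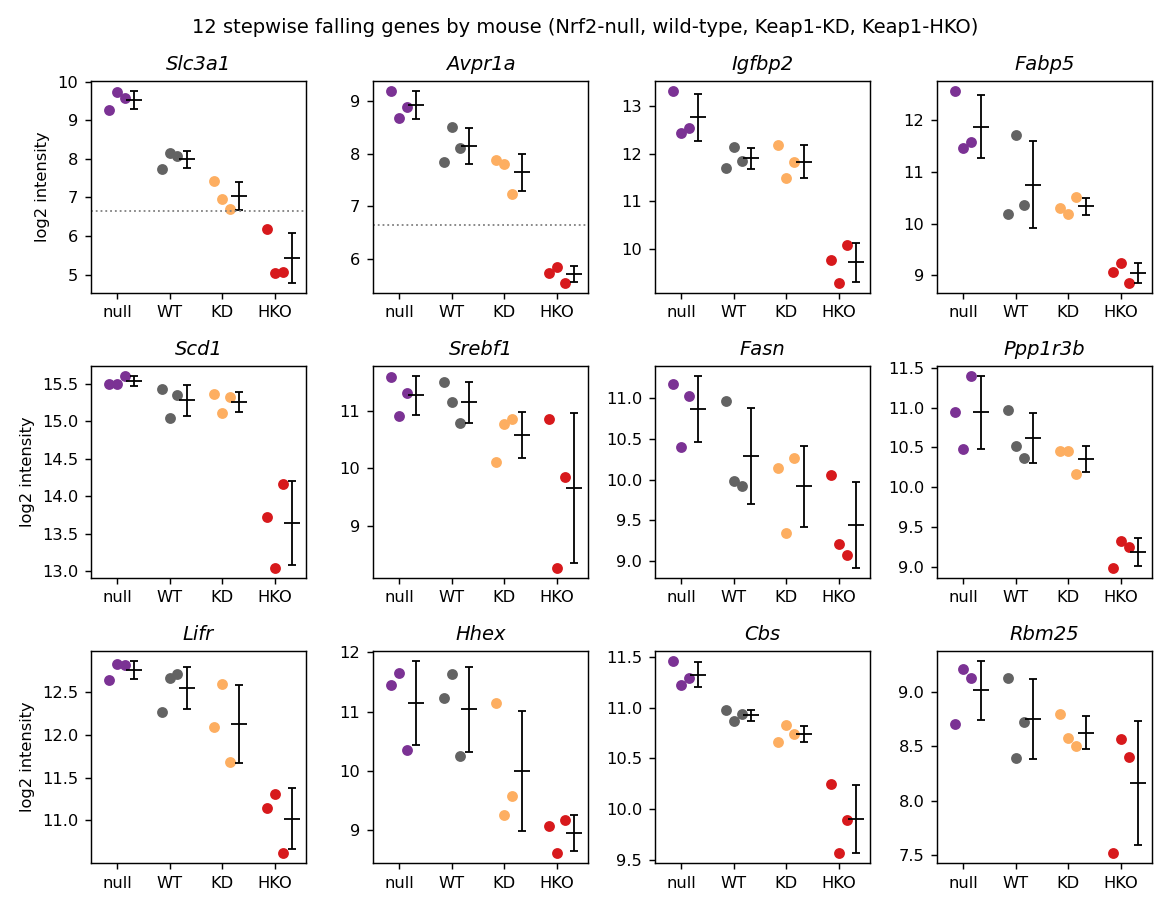
Log2 intensity of 12 genes on each array, with 1 point per mouse and the mean ± SD of 3 mice beside the points, for Nrf2-null (null), wild-type (WT), Keap1-KD (KD) and Keap1-HKO (HKO) mice. The dotted line, where within range, marks an intensity of 100. Slc3a1 and Cbs separate all 4 genotypes, Scd1 and Igfbp2 drop mainly in Keap1-HKO mice, and Srebf1 and Rbm25 have 1 Keap1-HKO array far from the others.

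Growth hormone dependent and sex-biased liver genes gave 4 members of 24 measured (16.7%, against 2.2% of all genes). Of the 24, 20 had a higher mean in Nrf2-null than in Keap1-HKO mice (3263 of 5856 genes overall), with a median difference of 0.81. Against wild-type mice the list's median difference was −0.03 in Nrf2-null and −0.84 in Keap1-HKO mice. Means were in falling order for 7 of the 24 (591 of 5856 genes overall). Besides Enho and Igfbp2, the members were Hsd3b5, a hydroxysteroid dehydrogenase of male mouse liver, and Elovl3, a male-biased fatty acid elongase. Hsd3b5 was at 13.81, 13.67 and 13.55 in Nrf2-null mice, 13.30, 13.61 and 13.60 in wild-type mice, 13.11, 13.45 and 13.31 in Keap1-KD mice and 12.59, 11.97 and 11.70 in Keap1-HKO mice. The first 3 genotypes of Hsd3b5 overlapped with their neighbours, and 75.6% of the difference lay in the last step. Elovl3 differed by 0.97 (standard error 0.32), with 77.5% in the last step.

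Genes of lipid synthesis and handling made up 13 members with a median difference of 1.51 (0.97 to 2.82). Scd1, the desaturase that makes oleate, was at 15.50, 15.50 and 15.61 in Nrf2-null mice, 15.44, 15.05 and 15.36 in wild-type mice, 15.36, 15.11 and 15.32 in Keap1-KD mice and 13.72, 13.04 and 14.16 in Keap1-HKO mice. Its Keap1-HKO arrays alone were low, and 85.5% of the difference lay there. A second Scd1 probe set was at 11.75, 10.82 and 11.43 in Nrf2-null mice, 11.06, 9.51 and 10.66 in wild-type mice, 11.24, 9.59 and 10.18 in Keap1-KD mice and 9.39, 7.84 and 8.85 in Keap1-HKO mice. That probe set kept the order of the means, although replicate 2 was the lowest array of every genotype.

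Elovl2, which elongates polyunsaturated fatty acids, was at 13.43, 13.61 and 13.86 in Nrf2-null mice, 13.29, 13.31 and 13.35 in wild-type mice, 13.30, 13.38 and 13.20 in Keap1-KD mice and 11.16, 12.51 and 12.29 in Keap1-HKO mice. Its wild-type and Keap1-KD values were nearly level, and Keap1-HKO replicate 1 was the lowest array. Fads1, the delta-5 desaturase of polyunsaturated fatty acids, was at 12.99, 12.26 and 12.79 in Nrf2-null mice, 12.11, 11.88 and 12.28 in wild-type mice, 12.34, 11.88 and 11.82 in Keap1-KD mice and 11.40, 10.80 and 11.31 in Keap1-HKO mice. All Keap1-HKO arrays of Fads1 lay below all others.

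Srebf1, which encodes the transcription factor SREBP-1 of lipogenesis, was at 11.58, 10.91 and 11.31 in Nrf2-null mice, 11.50, 11.14 and 10.79 in wild-type mice, 10.11, 10.77 and 10.85 in Keap1-KD mice and 10.85, 8.26 and 9.84 in Keap1-HKO mice. Keap1-HKO replicate 1 was the highest of its group for Srebf1 and lay within the wild-type range, just above the highest Keap1-KD array, so that the SD within Keap1-HKO mice was 1.31. Fasn, the fatty acid synthase, and Acly, the ATP citrate lyase, are members of the same list that were named after their values were seen. Fasn was at 11.17, 10.40 and 11.03 in Nrf2-null mice, 10.97, 9.99 and 9.92 in wild-type mice, 10.15, 9.35 and 10.26 in Keap1-KD mice and 10.05, 9.21 and 9.07 in Keap1-HKO mice. Adjacent genotypes of Fasn overlapped throughout. Acly differed by 1.16 (standard error 0.28), and 2 further Acly probe sets differed by 1.13 and 1.04 in the same order.

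Fabp5, a fatty acid-binding protein, was at 12.57, 11.47 and 11.58 in Nrf2-null mice, 10.18, 11.72 and 10.37 in wild-type mice, 10.30, 10.19 and 10.51 in Keap1-KD mice and 9.07, 9.24 and 8.85 in Keap1-HKO mice. Wild-type replicate 2 reached the Nrf2-null range, and a second Fabp5 probe set repeated the pattern with a difference of 2.84. Chka, choline kinase alpha of phosphatidylcholine synthesis, was at 8.34, 9.71 and 7.41 in Nrf2-null mice, 8.09, 7.05 and 7.53 in wild-type mice, 8.58, 6.61 and 6.50 in Keap1-KD mice and 5.75, 6.40 and 5.65 in Keap1-HKO mice. The spread of Chka within genotypes was wide, with a standard error of 0.65 on a difference of 2.55, and 2 further probe sets differed by 3.87 and 2.02. All Keap1-HKO arrays of Chka read under an intensity of 100, with a bound of at least 4.43-fold lower in Keap1-HKO than in Nrf2-null mice. Gpd2, the mitochondrial glycerol-3-phosphate dehydrogenase, was at 8.81, 8.88 and 9.80 in Nrf2-null mice, 8.12, 8.04 and 8.02 in wild-type mice, 7.71, 8.10 and 8.15 in Keap1-KD mice and 7.30, 7.42 and 7.19 in Keap1-HKO mice. Every Nrf2-null array of Gpd2 was above every wild-type array, with 59.2% of the difference in that step.

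In the list of fatty acid and triglyceride synthesis 6 of 32 measured genes were members (18.8%, against 2.2% of all genes). The list's median Nrf2-null minus Keap1-HKO difference was 0.40, with 21 of 32 higher in Nrf2-null mice (3263 of 5856 genes overall). Cholesterol synthesis and uptake gave 1 of 17, Sc5d, an enzyme of the last stage of the pathway, which differed by 1.39 (standard error 0.20) with 42.1% in the middle step. Fatty acid oxidation and ketogenesis gave 0 of 47, with a median difference of 0.29. All 13 lipid members kept a difference of at least 0.8 without the Nrf2-null and Keap1-HKO arrays of replicate 1. The Keap1-HKO arrays kept there include that with the highest sum of pancreas acinar markers.

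Members of amino acid, sulfur, steroid and xenobiotic metabolism and solute transport numbered 13, with a median difference of 1.39 (0.85 to 4.10). Cbs, which makes cystathionine from homocysteine and serine, was at 11.46, 11.22 and 11.29 in Nrf2-null mice, 10.97, 10.87 and 10.94 in wild-type mice, 10.66, 10.83 and 10.74 in Keap1-KD mice and 10.25, 9.57 and 9.89 in Keap1-HKO mice. All 4 genotypes of Cbs were separate, with the steps next to wild-type mice small and the SD within wild-type mice only 0.05. Tat, tyrosine aminotransferase, was at 13.41, 12.94 and 13.13 in Nrf2-null mice, 12.63, 12.18 and 12.52 in wild-type mice, 12.34, 12.57 and 11.85 in Keap1-KD mice and 12.50, 11.30 and 11.87 in Keap1-HKO mice. For Tat the Nrf2-null arrays were clear of the rest, with 56.3% of the difference in the first step, while Keap1-HKO replicate 1 lay within the wild-type range. Agxt, which converts glyoxylate to glycine, differed by 0.95 (standard error 0.25), with 86.4% of it in the last step. Of 49 measured genes of amino acid catabolism and the urea cycle these 3 were members (6.12%, against 2.2% of all genes). A higher mean in Nrf2-null than in Keap1-HKO mice was found for 39 of the 49 (3263 of 5856 genes overall), with a median difference of 0.38.

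Slc38a4, a neutral amino acid transporter of hepatocytes, was at 13.44, 14.35 and 14.08 in Nrf2-null mice, 13.81, 14.11 and 13.94 in wild-type mice, 13.65, 13.75 and 13.78 in Keap1-KD mice and 11.42, 13.12 and 12.96 in Keap1-HKO mice. Nrf2-null and wild-type means were all but equal, and Keap1-HKO replicate 1 lay far below its group. A second Slc38a4 probe set differed by only 0.38 between Nrf2-null and Keap1-HKO mice and correlated with the first at r = 0.04 over the arrays. Slc41a2, a magnesium transporter, differed by 2.27 (standard error 0.38), with 78.3% of it in the last step. Adh6-ps1, a pseudogene of the alcohol dehydrogenase family, differed by 2.33 (standard error 0.36), with 81.9% in the last step. All Keap1-HKO and Keap1-KD arrays of Adh6-ps1 and most of its Nrf2-null arrays read under an intensity of 100, so that its steps are imprecise. By the bound it was at least 1.09-fold lower in Keap1-HKO than in Nrf2-null mice. Of phase I and II drug metabolism other than P450, 2 of 63 measured genes were members (3.17%, near the 2.2% of all genes). They were Sult1a1, a sulfotransferase of phenols, with a difference of 1.11 (standard error 0.28), and As3mt, which methylates arsenic, with 1.27 (standard error 0.22). Drug, bile and metal transporters gave 0 of 42 measured genes.

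Promoters of members are shown because the genes share an ordered profile and the core of the antioxidant response element is spelled TGACNNNGC. RefSeq promoters on GRCm38.p6 run 250 bases before to 50 bases after a start site, and 145 of them belonged to 107 members. TGACNNNGC, searched on both strands as were all motifs, occurred in 17.9% of the 145, against 14.9% of 6140 promoters of measured genes and 12.4% of 32851 promoters in all. CCAAT occurred in 40.7%, against 37.9% and 37.4%. CACGTG, the E-box, occurred in 12.4%, against 10.8% and 7.15%. TATAAA occurred in 10.3%, against 7.96% and 13.6%, and TTCNNNGAA, the form bound by STAT proteins, in 3.45%, against 6.47% and 8.30%. These shares are descriptions, and a match is not a site.

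Promoters of 4 members follow, Slc3a1 and Avpr1a for their large differences, G6pc for its first-step form and Fasn for lipogenesis, with matches to these motifs on either strand in capitals.
Slc3a1: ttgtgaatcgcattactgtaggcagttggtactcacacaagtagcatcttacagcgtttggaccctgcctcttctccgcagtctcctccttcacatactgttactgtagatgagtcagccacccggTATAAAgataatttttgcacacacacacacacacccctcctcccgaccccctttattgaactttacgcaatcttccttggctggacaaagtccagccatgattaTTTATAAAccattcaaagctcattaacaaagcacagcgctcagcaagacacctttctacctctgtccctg
Avpr1a: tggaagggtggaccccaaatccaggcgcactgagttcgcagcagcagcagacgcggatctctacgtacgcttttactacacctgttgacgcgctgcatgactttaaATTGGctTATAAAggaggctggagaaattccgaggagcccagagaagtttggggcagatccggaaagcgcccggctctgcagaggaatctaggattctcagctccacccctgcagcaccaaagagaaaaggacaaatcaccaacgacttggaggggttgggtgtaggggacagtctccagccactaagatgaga
G6pc: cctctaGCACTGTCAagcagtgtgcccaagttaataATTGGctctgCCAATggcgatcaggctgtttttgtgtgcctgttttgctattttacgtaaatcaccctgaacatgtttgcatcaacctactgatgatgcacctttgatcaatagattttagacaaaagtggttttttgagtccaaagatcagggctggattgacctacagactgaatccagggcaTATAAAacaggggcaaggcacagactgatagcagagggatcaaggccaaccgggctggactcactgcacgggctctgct
Fasn: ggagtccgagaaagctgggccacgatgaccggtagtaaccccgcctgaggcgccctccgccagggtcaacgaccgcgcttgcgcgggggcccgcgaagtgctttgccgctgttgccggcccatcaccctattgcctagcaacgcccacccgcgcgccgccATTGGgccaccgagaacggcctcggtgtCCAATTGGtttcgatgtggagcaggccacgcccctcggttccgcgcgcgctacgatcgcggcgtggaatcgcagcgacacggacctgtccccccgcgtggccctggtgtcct
The Slc3a1 window (chr17:85028097-85028396, plus strand) held TATAAA at 124 bases before the start site, and at 20 and 18 bases before it as overlapping matches of both strands. Avpr1a (chr10:122448249-122448548, plus strand) held CCAAT at 144 and TATAAA at 137 bases before its start site. G6pc (chr11:101367466-101367765, plus strand) held TGACNNNGC at 244, CCAAT at 214 and 204 and TATAAA at 29 bases before the start site. Fasn (chr11:120824498-120824797, minus strand) held CCAAT at 90, 62 and 59 bases before the start site, of which the last pair overlap on opposite strands. Slc3a1, Avpr1a and Fasn had no TGACNNNGC in the window.

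DNA-binding transcription factors and their partners gave 14 members with a median difference of 1.17 (0.81 to 2.19), and 12 of them had no step of 60% or more. Hhex, a homeobox factor of liver and bile duct development, was at 11.45, 11.66 and 10.35 in Nrf2-null mice, 11.24, 11.64 and 10.25 in wild-type mice, 11.15, 9.26 and 9.59 in Keap1-KD mice and 9.08, 8.61 and 9.18 in Keap1-HKO mice. Nrf2-null and wild-type arrays of Hhex matched closely by replicate number, 1 Keap1-KD array lay with them and 2 lay near the Keap1-HKO arrays. Foxa1, a pioneer factor of liver genes, was at 8.70, 9.18 and 8.05 in Nrf2-null mice, 8.75, 9.45 and 7.63 in wild-type mice, 8.48, 7.45 and 7.65 in Keap1-KD mice and 7.79, 7.47 and 7.45 in Keap1-HKO mice. Its values had a similar form, with 70.3% of the difference in the middle step and overlap between neighbouring genotypes. Zbed6, a repressor derived from a transposon, differed by 2.19 (standard error 0.31) and was at least 1.36-fold lower in Keap1-HKO than in Nrf2-null mice by the bound.

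Atf5, a leucine zipper factor of the stress response, was at 11.57, 10.97 and 11.56 in Nrf2-null mice, 11.22, 10.85 and 11.21 in wild-type mice, 10.88, 10.83 and 10.86 in Keap1-KD mice and 10.68, 9.93 and 10.19 in Keap1-HKO mice. The Keap1-HKO arrays were lowest, and the other genotypes ran into each other. Cry1, a repressor of the circadian clock, was at 8.44, 8.08 and 7.52 in Nrf2-null mice, 8.00, 7.70 and 7.26 in wild-type mice, 7.51, 7.18 and 7.03 in Keap1-KD mice and 6.73, 7.25 and 6.79 in Keap1-HKO mice. Each genotype of Cry1 overlapped with the next. Hlf, a clock output factor, differed by 0.82 (standard error 0.18). Of 13 measured clock genes these 2 were members (15.4%, against 2.2% of all genes). Only 4 of the 13 had a higher mean in Nrf2-null than in Keap1-HKO mice (3263 of 5856 genes overall), with a list median of −0.04. Of 29 measured hepatocyte transcription factors and nuclear receptors 2 were members, Atf5 and Foxa1 (6.90%, against 2.2% of all genes).

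Secreted, immune and matrix proteins numbered 9 members, with a median difference of 0.98 (0.82 to 1.74). Itih4, a plasma protein of the inter-alpha-trypsin inhibitor family, was at 14.70, 14.40 and 14.50 in Nrf2-null mice, 14.09, 14.00 and 14.02 in wild-type mice, 14.06, 13.84 and 13.95 in Keap1-KD mice and 13.78, 13.45 and 13.60 in Keap1-HKO mice. Nrf2-null arrays were above and Keap1-HKO arrays below both middle genotypes, which overlapped. C8b, a subunit of the membrane attack complex, differed by 1.06 (standard error 0.16), with 0.2% of it between Nrf2-null and wild-type mice. Ifitm3, an interferon-induced membrane protein, differed by 0.82 (standard error 0.18). Cxcl9, an interferon-induced chemokine, was at 8.14, 8.40 and 8.76 in Nrf2-null mice, 7.51, 8.86 and 8.50 in wild-type mice, 8.45, 8.56 and 7.66 in Keap1-KD mice and 6.41, 7.98 and 7.73 in Keap1-HKO mice. All neighbouring genotypes of Cxcl9 overlapped. Complement, coagulation and acute-phase proteins gave 2 members of 62 measured (3.23%), and interferon response and antigen presentation 1 of 32 (3.13%). Both shares are near the 2.2% of all genes. A higher mean in Nrf2-null than in Keap1-HKO mice was found for 46 of the 62 and 25 of the 32 (3263 of 5856 genes overall). The median differences were 0.32 and 0.23, and means were in falling order for 16 and 8 genes (591 of 5856 overall). Mpeg1, a macrophage protein named after its values were seen, differed by 0.98 (standard error 0.37). Of 14 Kupffer cell and macrophage markers 10 were measured. Their summed intensity was 6842 to 8589 in Nrf2-null, 6575 to 9775 in wild-type, 5828 to 6781 in Keap1-KD and 6378 to 6829 in Keap1-HKO mice. All Nrf2-null sums lay above all Keap1-KD and Keap1-HKO sums, while the wild-type range overlapped with each, so that the sums did not step down in order. Of the 10 markers, 9 had a higher mean in Nrf2-null than in Keap1-HKO mice, with a median difference of 0.44 (0.05 over all genes). The part of macrophage content in the level of Mpeg1 was not tested.

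Chromatin and RNA processing genes were the largest group by role, 19 members with a median difference of 1.10 (0.84 to 2.03). Chd4, a chromatin remodeller of the NuRD complex, was at 8.98, 8.38 and 8.21 in Nrf2-null mice, 8.42, 7.04 and 8.17 in wild-type mice, 7.92, 7.37 and 7.42 in Keap1-KD mice and 6.22, 6.42 and 6.82 in Keap1-HKO mice. Its Keap1-HKO arrays were below all others. A second Chd4 probe set differed by 0.54, against 2.03 for that of the rule, in the same order. In 14 of these 19 genes Keap1-HKO replicate 1 was the lowest of the 3 Keap1-HKO arrays, against 55 of the 129 members (42.6%) and 37.8% of all genes. Fubp1, which regulates Myc transcription and was named after its values were seen, was at 7.27 to 8.19 in Nrf2-null mice and at 4.61, 7.17 and 7.03 in Keap1-HKO mice. Ccnt2, a cyclin of the elongation factor P-TEFb and chosen likewise, was at 7.81 to 8.09 in Nrf2-null mice and at 5.69, 7.46 and 7.75 in Keap1-HKO mice. In both genes Keap1-HKO replicate 1 was the low array.

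Without the Nrf2-null and Keap1-HKO arrays of replicate 1 the difference of Fubp1 was 0.84 in place of 1.44, and that of Ccnt2 was 0.28 in place of 0.99. The group's median was 0.84 in place of 1.10, and 12 of 19 genes kept a difference of at least 0.8. Of the 129, 107 kept it, with a median of 1.14. The counts by role were 13 of 13 for lipid genes, 13 of 14 for glucose, hormone and growth factor genes, 12 of 13 for amino acid and xenobiotic genes, 13 of 14 for transcription factors and 7 of 9 for secreted proteins. The Keap1-HKO arrays kept in this setting include those with the highest sums of pancreas acinar markers (212111) and skeletal muscle markers (35163). The part of the arrays left out, and of those kept, in each single difference was not tested further.

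**Figure D4:**
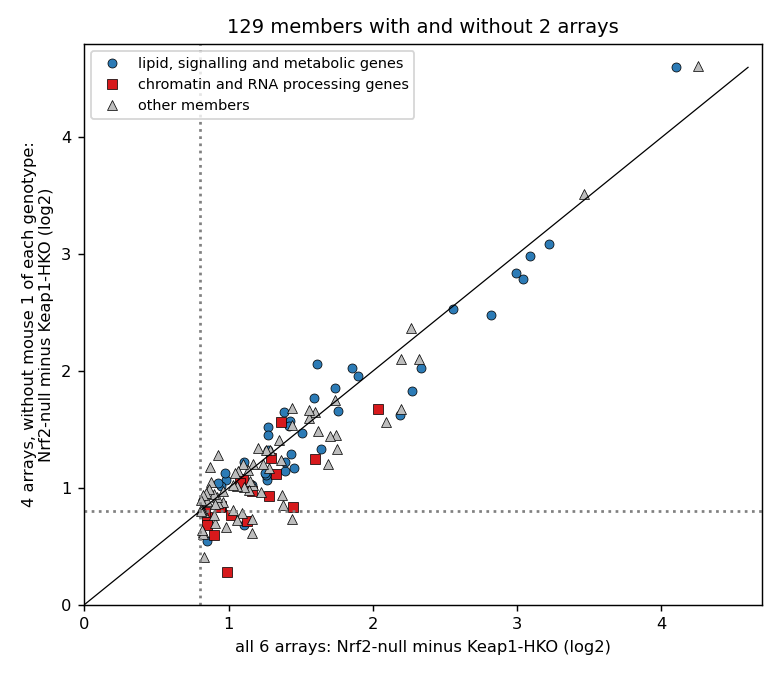
Nrf2-null minus Keap1-HKO difference (log2) of the 129 genes from all 6 arrays (horizontal axis) and from 4 arrays, without mouse 1 of each genotype (vertical axis). Points on the solid line have the same value on both, dotted lines mark 0.8, and 107 genes lie above the horizontal dotted line, 12 of the 19 chromatin and RNA processing genes (squares) among them.

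Probe sets of the members that the rule did not use gave a second reading of the same RNA. There were 74, for 50 of the 129 genes. The Nrf2-null mean exceeded the Keap1-HKO mean in 72 of them, and 39 (52.7%) had all 4 means in falling order, against 13.1% of 2698 unused probe sets of all genes. Nrf2-null and Keap1-HKO arrays were separate in that direction for 43 (58.1%), against 13.8% of the 2698. The median difference was 0.86, against 0.11 for all unused probe sets, and 27 met the whole rule. The correlation with the probe set used had a median of r = 0.87 over the 12 arrays. Since the mice are the same, this is no independent sample of the genotypes.

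Counts by role are given as a description, since the groups were made after the values were seen and differences between them were not tested. Unused probe sets in falling order were 8 of 10 for lipid genes, 7 of 9 for glucose, hormone and growth factor genes, 3 of 3 for amino acid and xenobiotic genes, 2 of 5 for transcription factors, 1 of 1 for secreted proteins, 4 of 23 for chromatin and RNA processing genes and 14 of 23 for members of no role group. The 23 of chromatin and RNA processing genes differed by a median of 0.52 between Nrf2-null and Keap1-HKO mice (−0.29 to 1.96). Xrn2, an exoribonuclease of transcription termination, differed by 1.37 by the probe set used and by 0.28 by a second. Rbm25, a splicing factor, was at 8.70, 9.21 and 9.12 in Nrf2-null mice, 9.12, 8.39 and 8.72 in wild-type mice, 8.79, 8.58 and 8.50 in Keap1-KD mice and 7.52, 8.57 and 8.40 in Keap1-HKO mice. Its Keap1-HKO replicates 2 and 3 lay within the Keap1-KD range or next to it.

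By another Rbm25 probe set the values were 4.85, 7.91 and 7.88 in Nrf2-null mice, 8.11, 7.50 and 7.73 in wild-type mice, 7.55, 7.97 and 7.50 in Keap1-KD mice and 5.83, 7.81 and 7.86 in Keap1-HKO mice, and the Nrf2-null minus Keap1-HKO difference was −0.29. Nrf2-null replicate 1 and Keap1-HKO replicate 1 were the low arrays of that probe set, and the other 10 lay together. The remaining Rbm25 probe set differed by 0.44. Rbm39, a splicing coactivator, differed by 0.84 by the probe set used. Of its 8 unused probe sets 7 differed less, by 0.10 to 0.79, and 0 of the 8 had means in falling order. The other one differed by 1.96 and was at 6.25, 8.95 and 9.29 in Nrf2-null mice, 8.61, 8.31 and 8.73 in wild-type mice, 8.85, 8.27 and 8.15 in Keap1-KD mice and 3.12, 7.89 and 7.60 in Keap1-HKO mice. Replicate 1 was low in both genotypes at the ends of the series there as well. What made probe sets of these genes differ was not tested.

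**Figure D5:**
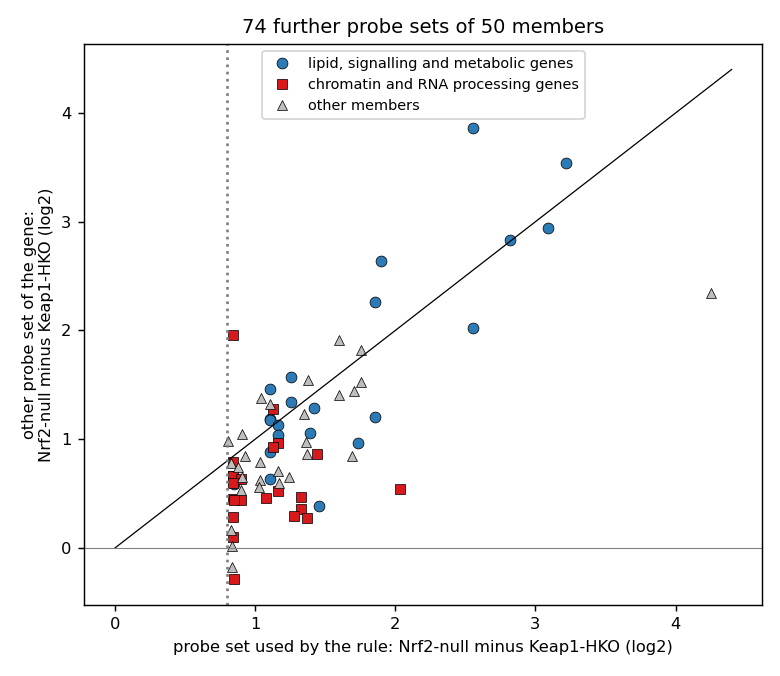
Nrf2-null minus Keap1-HKO difference (log2) of 74 further probe sets (vertical axis) against that of the probe set the rule used for the same gene (horizontal axis, dotted line at its minimum of 0.8), for 50 genes. Circles are lipid, signalling and metabolic genes, squares chromatin and RNA processing genes and triangles all other members. The solid line marks equal values, and 12 of 22 circles and 21 of 23 squares lie below it.

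Among the members of no role group, 47 in all, differences ran from 0.81 to 4.25 with a median of 1.16. Dixdc1, a protein of Wnt signalling, averaged 8.18 ± 0.47 in Nrf2-null mice, 7.92 ± 0.19 in wild-type mice, 7.68 ± 0.15 in Keap1-KD mice and 5.85 ± 1.12 in Keap1-HKO mice (SD, n = 3 each). All its Keap1-HKO arrays were lower than the rest but spread over a wide range, up to 7.11. 1810008I18Rik, a RIKEN transcript, averaged 10.37 ± 0.13 in Nrf2-null mice, 9.84 ± 0.26 in wild-type mice, 9.25 ± 0.41 in Keap1-KD mice and 8.10 ± 0.31 in Keap1-HKO mice (SD, n = 3 each). Only 1 Keap1-KD value reached into the wild-type range of that transcript. Atp11a, a phospholipid flippase, differed by 2.09 (standard error 0.54), with Keap1-HKO and Keap1-KD arrays overlapping. Its Keap1-HKO arrays all read under an intensity of 100, and by the bound it was at least 1.31-fold lower there than in Nrf2-null mice.

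Members just inside the minimum of 0.8 were Zbtb4, a repressor that binds methylated DNA, at 0.806, the RIKEN transcript 1110059G10Rik at 0.806 and Rpap3, a cochaperone of RNA polymerase assembly, at 0.810. Just outside it, with ordered means and separate arrays, were Camk2n1 at 0.798, Rbm5 at 0.795 and Acbd4 at 0.793. Another 31 genes had ordered means and a sufficient difference but overlapping Nrf2-null and Keap1-HKO arrays. Leaving out each of the 12 arrays in turn, 43 members met the rule every time. Slc3a1, Spsb4, Avpr1a, Enho, Grk5, Ppp1r3b, Hsd3b5, Fasn, Cbs and Sc5d were among these 43, while Mmd2, Igfbp2, Fabp5, Chka, Scd1, Srebf1 and G6pc were not.

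Within genotypes, correlations between members were near those between all genes. The median correlation between 2 members' deviations from their genotype means over the 12 arrays was r = 0.03, against 0.04 for all genes, and without the Nrf2-null and Keap1-HKO arrays of replicate 1 it was 0.03, against 0.01. Keap1-HKO replicate 1 held 23.8% of the members' squared deviations within genotypes, against 37.1% for all genes. Among the protein-coding members Pag1 and Fabp5 were the only neighbours on a chromosome.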

How the data were processed

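Liver RNA of 12 mice, 3 of each of 4 genotypes, was hybridised to Affymetrix Mouse Genome 430 2.0 arrays. The authors made the deposited log2 intensities with gcRMA in R, of a version not given in the sources used here, and dropped those probe sets that exceeded an intensity of 100 in no group. Scanner files were not analysed here. Of 9622 probe sets, 8554 listed exactly 1 gene symbol in the platform annotation. The other 1068 were left out, although 48 of them met the same rule. The probe set with the highest mean over 12 arrays stood for each of 5856 genes. All 129 members matched RefSeq by Entrez identifier and symbol. Arrays have no read depth, and 3 mice per genotype limit the precision.

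The members and gene lists were chosen with earlier results of these data known, and the groups by role after their values were seen. Genes named in the text were the 20 members with the largest difference, up to 4 members of each gene list, the 5 with the highest mean, those nearest to the minimum of 0.8 and those whose probe sets disagreed most. Others are marked as named after their values were seen, apart from members listed by a count. Contrasts were fitted by lmFit and eBayes of limma (version 3.58.1, R 4.3.3), with 8 residual and 2.19 prior degrees of freedom and Benjamini-Hochberg adjustment over 5856 genes, and standard errors come from that fit. The fit was tested on simulated data. Alternatives were a second quantile normalization, centring, a floor at 100, a filter at 200, other probe sets, group medians, other thresholds, array quality weights, a replicate block and leaving out arrays. Same-numbered arrays of Nrf2-null and Keap1-HKO mice deviated together from their genotype means (r = 0.79, 0.69 and 0.70 over genes). Differently numbered arrays did so too for Nrf2-null replicate 2 with Keap1-HKO replicate 3 (0.62) and Nrf2-null replicate 3 with Keap1-HKO replicate 2 (0.43). Pairs of replicate 1 with another number gave −0.80 to −0.58. Deviations within a genotype are tied by their shared mean, so these r do not show a pairing by number. Same-numbered arrays of Nrf2-null and Keap1-KD and of Keap1-KD and Keap1-HKO mice all had r over 0.1. Pairs with wild-type mice did not all do so, with a lowest r of −0.16. Whether the labels' replicate numbers mark a shared day or litter is not stated.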

Additional observations from a re-analysis of the deposited data

How the results depend on the processing

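With a minimum difference of 0.5 the rule found 236 genes, and with 1.2 it found 68. Leaving out each array in turn gave 110 to 323 genes, with the highest count without Nrf2-null replicate 1 and 193 without Keap1-HKO replicate 1, and of the 129 members 102 to 121 remained each time. Other settings gave 99 to 180 genes, with 180 when Keap1-HKO replicate 1 and Nrf2-null replicate 1 were left out together, a setting chosen after seeing the data that kept 93 of the 129. In all, 36 members met the rule without each array in turn and after a second quantile normalization, centring and a floor.

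Members called by limma changed with the fit, and calls over the whole table in either direction, given in brackets, moved as well. For Nrf2-null against wild-type mice (0 in the text [24]) the counts were 1 [44] with the replicate block, 54 [1379] with array quality weights, 3 [27] with the floor, 4 [59] without both arrays above and 0 to 2 leaving out each array. For Keap1-KD against wild-type mice (0 in the text [4]) they were 27 [323] with array weights, 1 [7] from these 2 groups alone and 0 leaving out each array. For Keap1-HKO against Nrf2-null mice (99 in the text [535]) the count was 23 [110] from these 2 groups alone and 72 to 105 [330 to 853] leaving out each array. For Keap1-HKO against wild-type mice (41 in the text [231]) it was 9 [49] from 2 groups, 82 [671] without both arrays, and 21 to 48 [89 to 272] leaving out each array, with 21 [89] and 23 [105] without Wild-type replicates 3 and 2. Fewer arrays leave fewer degrees of freedom, and the cause of the other changes was not tested. With the replicate block the counts were 111 [693] for Keap1-HKO against Nrf2-null, 0 [3] for Keap1-KD against wild-type and 56 [381] for Keap1-HKO against wild-type mice. The replicate block thus moved no other count of members by over 1.5 times.

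The difference of Rbm25 was −0.29 with the probe set of the largest SD. Of 973 differences of the 49 named members recomputed over 20 settings, 933 moved by less than the SD between replicates, 39 moved by more (24 of them to a lower value) and this 1 changed sign. With 3 arrays a genotype and 29 members under an intensity of 100 on every Keap1-HKO array, small steps and low levels are imprecise.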
